A study of Homo sapiens with 6 samples.

Results

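The 9 genes followed here mark or set the epithelial or mesenchymal state of a carcinoma cell: EPCAM, the cadherins CDH1 and CDH2, the splicing regulators ESRP1 and ESRP2, the transcription factors GRHL2, ZEB1 and SNAI2, and the filament gene VIM. They were chosen by name, and all 9 were found among the 24000 gene entries of the deposited table. PC-3, the line used, derives from a human prostate carcinoma and grows without androgens. The cells carried a luciferase reporter and were injected into the prostate of male athymic nude mice, which lack T cells but keep myeloid and stromal cells. For sequencing there were 3 tumors from vehicle-treated mice and 3 from mice given WCE, a standardized extract of the herb Wedelia chinensis. The comparison asks which transcripts of the tumors differed after WCE. The labels give a treatment duration of 10 weeks for all 6 tumors and no dose or age of the mice. Values are FPKM, fragments scaled by transcript length and by the mapped fragments of the library, so that levels can be compared between genes as well as between tumors.

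Epithelial cells hold together through E-cadherin, the product of CDH1, and carry the adhesion protein EPCAM on their surface. In an epithelial-mesenchymal transition (EMT) these are lost and vimentin and N-cadherin, the products of VIM and CDH2, appear. ZEB1 and the SNAI factors bind short DNA boxes, CACCTG or its reverse complement CAGGTG, and repress epithelial genes. GRHL2 activates epithelial genes and opposes ZEB1, and the ESRP proteins maintain the epithelial splice forms of other genes.

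One pair of libraries bears on every comparison. Vehicle replicate 3 and WCE replicate 1 had nearly the same values, with a median absolute log2 difference of 0.028 over 1915 entries of at least 50 FPKM on average, against 0.095 to 0.247 in the other 14 pairs of tumors. No entry above 0 in WCE replicate 1 was at 0 in vehicle replicate 3. The steps of the low values put the depth of WCE replicate 1 at 25.0% of that of vehicle replicate 3 and that of the other 4 tumors at 64.8% to 85.2%, and the absolute depth is unknown. Whether these 2 libraries come from independent tumors is not known. Every test, SD and count for 3 tumors against 3 treats them as independent. All 6 tumors were kept as labeled, and the differences of the 9 genes and the counts of the gene lists are also given for 2 tumors against 2, without these libraries. KRT8, KRT18 and KRT19, keratins of simple epithelia, stood together at 840 to 1169 FPKM, and KLK2 and KLK3, androgen-dependent prostate genes, were listed at 0 in all 6 tumors.

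The tumors expressed genes of both states at once. VIM had the highest mean of the 9 genes, at 415 FPKM over the 6 tumors, and EPCAM followed at 197 FPKM. ESRP1 (52.0 FPKM) and CDH1 (51.4 FPKM) came next and did not differ beyond their spread between tumors, then CDH2 (24.4 FPKM) and SNAI2 (22.3 FPKM), which likewise overlapped. ESRP2 (10.5 FPKM) and GRHL2 (10.0 FPKM) overlapped as well, and ZEB1 was lowest at 6.11 FPKM. Every one of the 9 passed the minimum of 0.5 FPKM for the test. The highest tumor was between 1.52 times (ESRP2) and 2.85 times (ZEB1) the lowest.

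**Figure D1:**
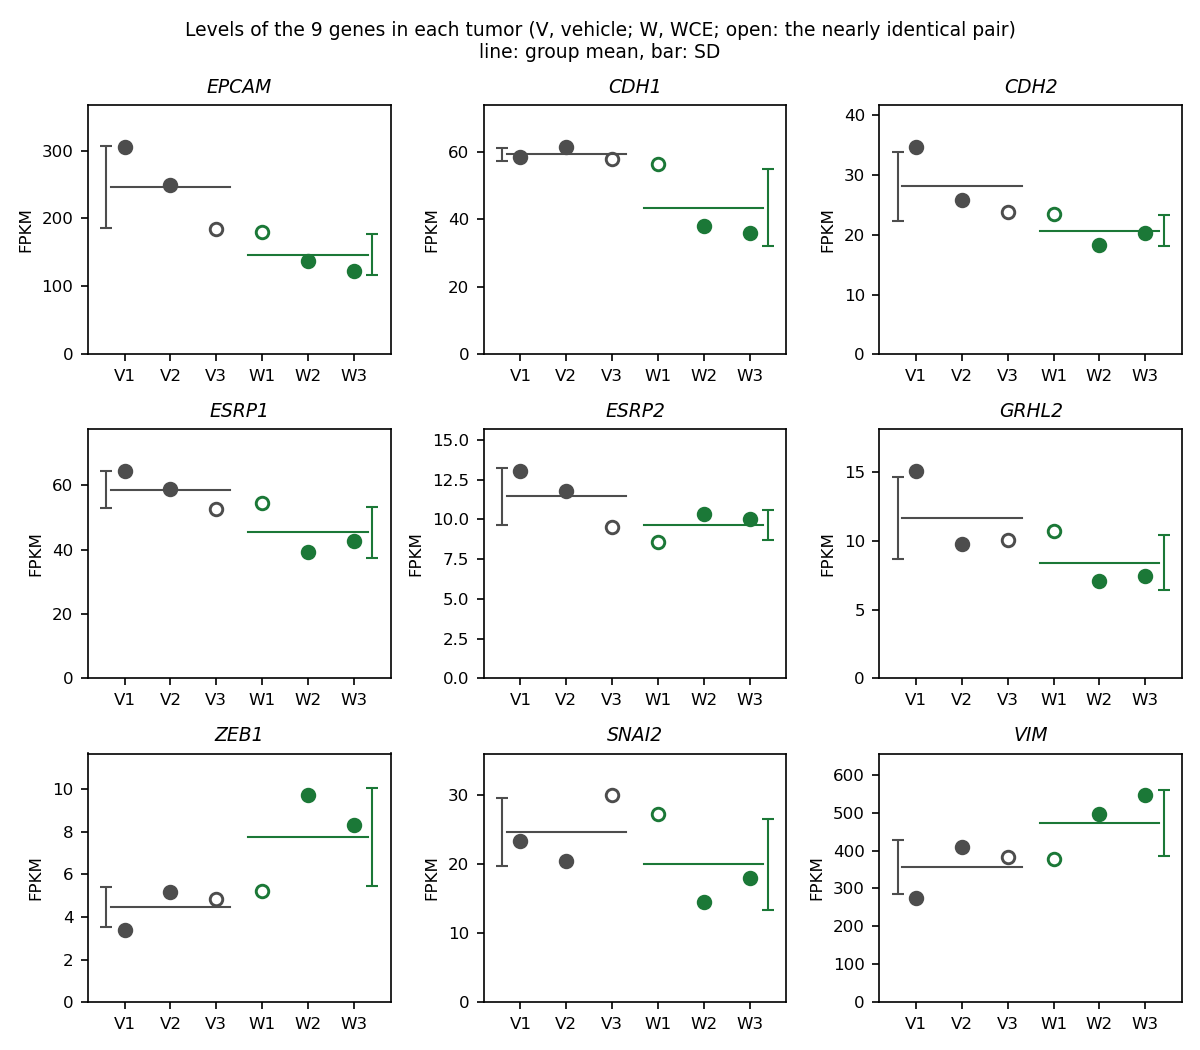
Each panel plots the FPKM of 1 gene in the 6 tumors (V, vehicle; W, WCE), with the group mean as a line and the SD as a bar beside it; open circles are the nearly identical libraries. EPCAM, CDH1 and CDH2 lie lower in every WCE-treated tumor and ZEB1 lies higher, while V3 and W1 have similar values in each panel.

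In WCE-treated tumors EPCAM, both cadherins and ESRP1 were at lower levels, and ZEB1 was at a higher level. The test was limma's, applied to log2(FPKM + 1) of the 13287 entries whose mean reached 0.5 FPKM. Of the 9 genes, 5 had an unadjusted p under 0.05, against 7.1% of all entries tested, and none had an adjusted p under 0.05, which 0.00753% of all entries had. The 4 genes lower at that unadjusted threshold were EPCAM, CDH1, CDH2 and ESRP1, against 3.33% of all entries, and the 1 that was higher was ZEB1, against 3.78%. In 4 genes the groups did not overlap, as in 12.8% of all entries. These were EPCAM, CDH1 and CDH2, lower as in 6.4% of all entries, and ZEB1, higher as in 6.37%. The adjusted p of the 9 genes lay between 0.623 and 0.662. With an unmoderated test of each entry in place of limma's, none of the 9 genes passed the unadjusted threshold. Leaving out tumors, it was passed by 1 gene (EPCAM) when vehicle replicate 1 or either of WCE replicates 2 and 3 was dropped, and by 8 genes without WCE replicate 1.

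EPCAM, an adhesion glycoprotein of epithelial cells that is overexpressed in many carcinomas, is listed at chr2:47596287-47614167. The submitters' processing notes name hg19 as the human build, without stating its role. The tumors of vehicle replicates 1 to 3 had 305, 249.9 and 185 FPKM and those of WCE replicates 1 to 3 had 179.96, 138 and 123 FPKM. The groups thus did not overlap, but the gap between them lay between the nearly identical libraries. The means were 247 ± 60.2 and 147 ± 29.6 FPKM (SD, n = 3 each). On the log2 scale WCE minus vehicle was −0.73 with a standard error of 0.21. Limma gave it an unadjusted p of 0.00889, which ranked 47 among the 13287 entries, and an adjusted p of 0.623. A two-sided exact permutation test gave p = 0.1, the smallest that 3 tumors against 3 allow. For 2 tumors against 2 the log2 fold change was −1.08 (standard error 0.14, adjusted p = 0.154 by limma). The locus is shared with the microRNA entry MIR559.

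CDH1 (chr16:68771195-68869444), which encodes E-cadherin of the adherens junction, was nearly the same in 4 tumors and lower in the other two. It had 58.6, 61.4 and 57.8 FPKM in vehicle replicates 1 to 3 and 56.5, 38.0 and 35.9 FPKM in WCE replicates 1 to 3. The groups did not overlap, with WCE replicate 1 just below the vehicle-treated tumors and WCE replicates 2 and 3 far below them. Limma put the log2 fold change at −0.47 (standard error 0.17, unadjusted p = 0.0253), and at −0.68 for 2 tumors against 2.

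CDH2 (chr18:25530930-25757445), which encodes N-cadherin and is usually read as a mesenchymal gene, was lower in the WCE-treated tumors as well. Its values were 34.7, 25.8 and 23.8 FPKM in vehicle-treated and 23.4, 18.3 and 20.4 FPKM in WCE-treated tumors, which limma put at −0.41 on the log2 scale (standard error 0.16, unadjusted p = 0.0335) and at −0.61 for 2 tumors against 2. Without vehicle replicate 1, the highest tumor, it was −0.26 (unadjusted p = 0.0863 by limma). Because both cadherins were lower, the ratio of CDH1 to CDH2 stayed within the same range in both groups. This ratio of FPKM was 1.69, 2.38 and 2.43 in vehicle-treated and 2.41, 2.08 and 1.76 in WCE-treated tumors.

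Of the epithelial splicing regulators, ESRP1 (chr8:95653364-95719694) had 64.5, 58.9 and 52.8 FPKM in vehicle-treated and 54.4, 39.2 and 42.6 FPKM in WCE-treated tumors. Its groups overlapped only through WCE replicate 1, which was above vehicle replicate 3. Its log2 difference by limma was −0.37 (standard error 0.14, unadjusted p = 0.0323), and −0.58 for 2 tumors against 2. ESRP2 had 13.04, 11.8 and 9.49 FPKM in vehicle-treated and 8.58, 10.3 and 10.0 FPKM in WCE-treated tumors, where the lowest values were those of the nearly identical libraries. Its difference of −0.22 on the log2 scale (standard error 0.14) had an unadjusted p of 0.149 by limma and was −0.26 for 2 tumors against 2, and its listed locus (chr16:68119269-68270136) is shared with NFATC3. The ratio of ESRP1 to ESRP2 was 5.17 ± 0.342 in vehicle-treated and 4.79 ± 1.36 in WCE-treated tumors (SD, n = 3 each) with overlapping groups, and a difference between these genes in their response was not shown. Values per entry do not separate splice forms, so the activity of these proteins was not measured.

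GRHL2 (chr8:102504668-102681952), the epithelial activator, had 15.1, 9.79 and 10.04 FPKM in vehicle-treated and 10.7, 7.08 and 7.48 FPKM in WCE-treated tumors. WCE replicate 1 lay above vehicle replicates 2 and 3, and the log2 fold change of −0.42 (standard error 0.20) had an unadjusted p of 0.0740 by limma. For 2 tumors against 2 it was −0.67 (unadjusted p = 0.0210 by limma, adjusted p = 0.210).

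The repressor ZEB1 (chr10:31608101-31818742) went the opposite way. It had 3.41, 5.17 and 4.86 FPKM in vehicle-treated and 5.20, 9.71 and 8.31 FPKM in WCE-treated tumors. The groups did not overlap, but WCE replicate 1 was barely above vehicle replicate 2, and WCE replicates 2 and 3 stood apart. By limma it was higher by 0.65 on the log2 scale (standard error 0.22, unadjusted p = 0.0207), and by 0.94 for 2 tumors against 2 (standard error 0.20, adjusted p = 0.170). The ratio of ESRP1 to ZEB1 was 18.9, 11.4 and 10.9 in vehicle-treated and 10.5, 4.03 and 5.12 in WCE-treated tumors, with no overlap.

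SNAI2 (chr8:49830239-49833999), a repressor of the same E-boxes as ZEB1, had a lower mean in the WCE group, with overlap. SNAI2 had 23.3, 20.5 and 29.98 FPKM in vehicle-treated and 27.3, 14.5 and 18.0 FPKM in WCE-treated tumors. The nearly identical libraries were the highest of the 6, and the difference of −0.32 on the log2 scale (standard error 0.23) was within the spread between tumors (unadjusted p = 0.210 by limma). For 2 tumors against 2 it was −0.41.

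VIM (chr10:17270258-17279592), the intermediate filament gene of mesenchymal cells, had 275, 411 and 382 FPKM in vehicle-treated and 378, 496 and 546 FPKM in WCE-treated tumors. Its groups overlapped, since WCE replicate 1 was below vehicle replicates 2 and 3. Limma gave 0.41 on the log2 scale (standard error 0.19, unadjusted p = 0.0673), and 0.63 for 2 tumors against 2. The ratio of EPCAM to VIM was 1.11, 0.609 and 0.484 in vehicle-treated and 0.477, 0.278 and 0.225 in WCE-treated tumors. It was thus lower in every WCE-treated tumor, with the gap again between the nearly identical libraries.

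**Figure D2:**
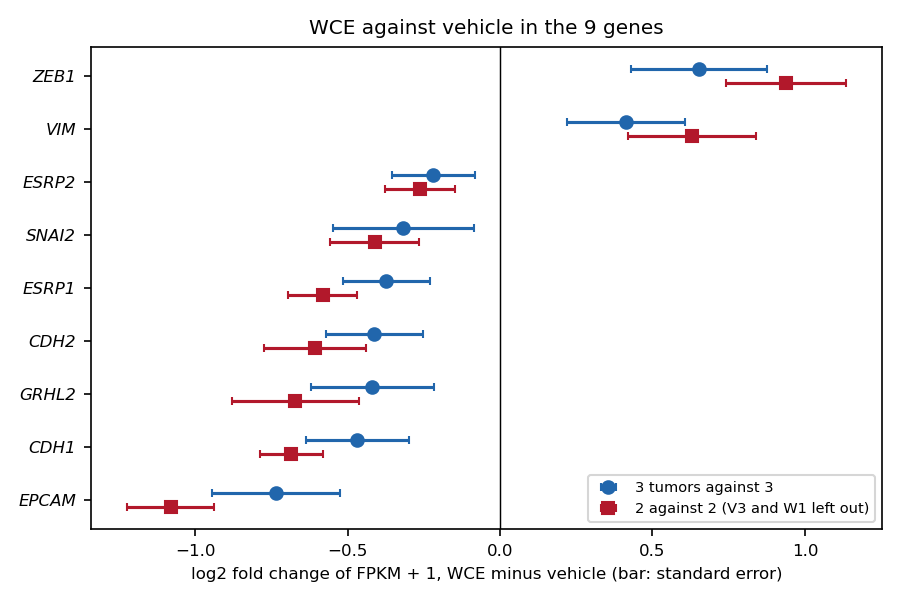
The log2 fold change of FPKM + 1, WCE minus vehicle, is plotted for the 9 genes with its standard error, for 3 tumors against 3 (circles) and for 2 against 2 without the nearly identical libraries (squares). All 9 genes keep their sign, and EPCAM goes from −0.73 to −1.08 and ZEB1 from 0.65 to 0.94. The libraries left out are nearly equal and in opposite groups, so leaving them out enlarges a difference by arithmetic. Kept signs and larger differences here are thus no separate check.

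For 2 tumors against 2, 8 of the 9 genes had an unadjusted p under 0.05, all but ESRP2, but so had 18.6% of all entries. The 6 lower genes stood against 9.63% of all entries and the 2 higher ones, ZEB1 and VIM, against 8.92%, and none of the 9 had an adjusted p under 0.05, against 0.0377% of all entries. With 2 tumors a group, the groups of all 9 genes were separate, but so were those of 53.6% of all entries, with 7 genes lower against 27.8% and 2 higher against 25.8%. Between vehicle replicate 3 and WCE replicate 1 themselves, the 9 genes differed by −0.13 (ESRP2 and SNAI2) to 0.09 (GRHL2) on the log2 scale, WCE minus vehicle.

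Host cells of a bulk tumor can contribute to VIM, and fewer cells of a type and less RNA per cell cannot be told apart. The 7 fibroblast markers summed to 53.1 to 60.4 FPKM in vehicle-treated and 45.4 to 74.4 FPKM in WCE-treated tumors, mostly from COL1A1, a collagen gene, at 10.4 to 45.7 FPKM. COL3A1 stood at 1.81 to 11.7 FPKM and LUM at 0.338 to 3.15 FPKM, while COL1A2, DCN and PDGFRB were each at most 0.628 FPKM in any tumor. PDGFRA, a receptor of fibroblasts, stood at 32.6 and 20.7 FPKM in WCE replicates 2 and 3, the tumors with the highest ZEB1, and at 3.97 to 11.02 FPKM in the other 4. By contrast, COL1A1 (10.4 FPKM), COL3A1 (1.81 FPKM) and LUM (0.338 FPKM) were each lowest in WCE replicate 2. COL1A1 was highest in WCE replicate 3 (45.7 FPKM). Of 4 fibroblast markers tested, only LUM was lower at an unadjusted p under 0.05 by limma, against 3.33% of all entries. None was higher, against 3.78%. The 5 endothelial markers summed to 1.21 to 3.35 and 3.21 to 7.59 FPKM, with KDR, a VEGF receptor, at 5.12 FPKM in WCE replicate 3. The 7 myeloid markers summed to 25.8 to 41.4 and 40.4 to 44.7 FPKM, nearly all of it CD68, a lysosomal gene, while PTPRC, CSF1R, ITGAM, CD14 and LYZ were each at most 0.666 FPKM and TYROBP was at 0. The endothelial and myeloid sums were lowest in vehicle replicate 1 and highest in WCE replicate 3, as VIM was, but these peaks came mostly from KDR and CD68. PECAM1 was highest in vehicle replicate 2 (2.95 FPKM) and PTPRC in WCE replicate 1 (0.666 FPKM). The fibroblast sum was highest in WCE replicate 3 but lowest in WCE replicate 2, where VIM was at 496 FPKM. The part of host cells in VIM and ZEB1 was not tested.

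Of the 20 listed genes of apical junctions and polarity, 18 had a negative log2 fold change, and 7 of them (OCLN, MARVELD2, MARVELD3, CRB3, AP1M2, TMEM30B and EPN3) had an unadjusted p under 0.05 by limma, against 3.33% of all entries. The median log2 fold change of the list was −0.26, and that of all entries was −0.01. AP1M2, a subunit of the clathrin adaptor that sorts proteins to the basolateral membrane, had 36.6, 32.3 and 25.3 FPKM in vehicle-treated and 24.9, 17.8 and 17.3 FPKM in WCE-treated tumors (log2 fold change −0.63, standard error 0.18). TMEM30B, a partner of lipid flippases, had 23.9, 24.3 and 18.2 FPKM and 18.1, 11.7 and 11.8 FPKM (log2 fold change −0.65, standard error 0.19). CRB3, an apical polarity protein, had 20.6, 18.6 and 15.0 FPKM and 14.4, 11.7 and 11.6 FPKM (log2 fold change −0.49, standard error 0.14), and its locus is shared with DENND1C. The groups of all 3 genes did not overlap, narrowly so for WCE replicate 1. The most abundant genes of the list, MAL2 (mean 687 FPKM) and LSR (69.8 FPKM), had log2 fold changes of −0.10 and −0.37 with unadjusted p of 0.474 and 0.0508 by limma. For 2 tumors against 2, 10 of the 20 were lower and 1 was higher at an unadjusted p under 0.05, against 9.63% and 8.92% of all entries.

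**Figure D3:**
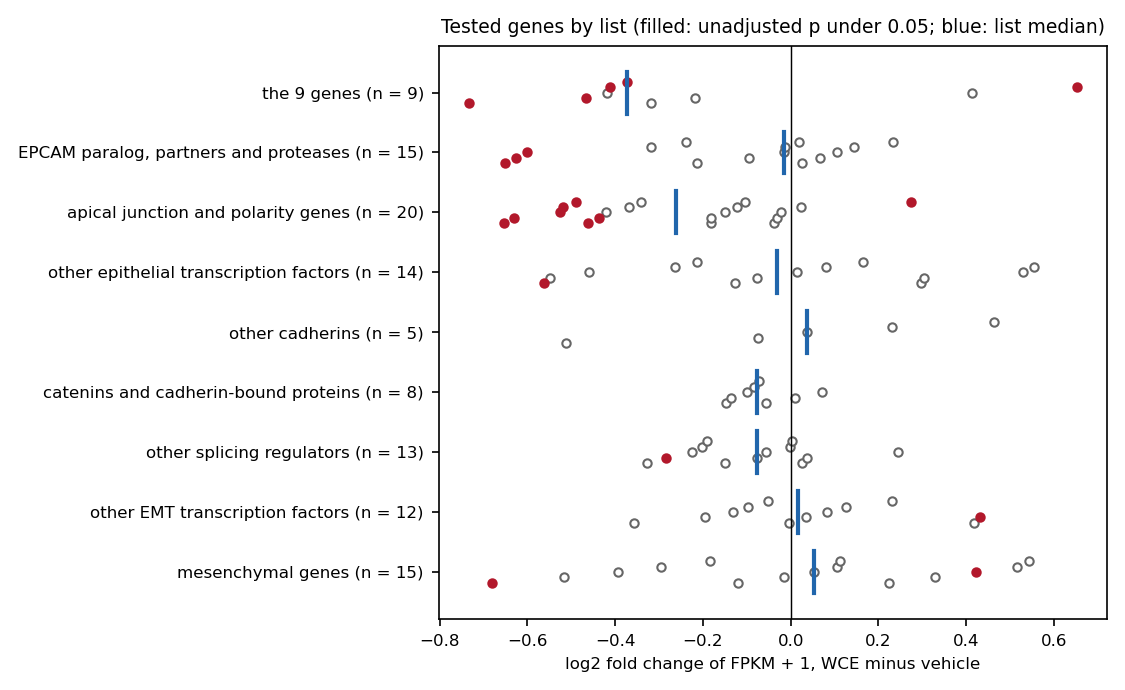
Each circle is the log2 fold change of FPKM + 1, WCE minus vehicle, of 1 tested gene, by list, filled where the unadjusted p was under 0.05, and the blue bar is the median of the list. The median lies at −0.37 for the 9 genes and at −0.26 for apical junction and polarity genes, and between −0.08 and 0.05 for the other 7 lists.

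The boxes bound by ZEB1 and SNAI factors were looked for in the RefSeq promoter table (GRCh38.p14, 300 bases from 250 before to 50 after a start), which held 3 of the 9 genes (CDH2, VIM and ZEB1) and 11 of the 20 junction genes. A share over either list is therefore void. At least 1 CACCTG or CAGGTG, the same box on either strand, was in 20.6% of all 35116 promoters and at least 3 in 0.635%. The 3 junction genes with the lowest p held 3 boxes (AP1M2), 4 (TMEM30B) and 5 (CRB3), and their sequences are shown so that the boxes can be read in place. Of the 16 windows of the 11 junction genes, these 3 alone held at least 3 boxes. MARVELD2, the called gene next in p, had none, OCLN had 1 and 2 at its starts, and LSR and CGN had none. RAB25, with an unadjusted p of 0.315 by limma, had 2, and TJP1, TJP3 and CDS1 had at most 1 at a start. Promoters of MARVELD3 and EPN3, which were also called, were not held. The 3 genes shown were picked by their p in these data, and regulation by ZEB1 or SNAI factors was not tested. CDH2 and VIM had none in this window, and among 7 starts of ZEB1 itself 1 had 3 boxes and 1 had a single box. The AP1M2 stretch (chr19:10587316-10587562, minus strand) is the part of the window before every annotated exon, and for TMEM30B (chr14:61281429-61281458, minus strand) and CRB3 (chr19:6464041-6464070, plus strand) only the 30 bases around the first pair of boxes are shown, with boxes in capitals, 5′ to 3′.
AP1M2: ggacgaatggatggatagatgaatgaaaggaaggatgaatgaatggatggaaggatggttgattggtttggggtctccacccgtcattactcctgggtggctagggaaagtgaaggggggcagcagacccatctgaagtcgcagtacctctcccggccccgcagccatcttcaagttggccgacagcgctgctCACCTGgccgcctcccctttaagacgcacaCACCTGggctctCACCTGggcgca
TMEM30B: acCAGGTGaggtaaaaaacaccCACCTGct
CRB3: tgCAGGTGtaaggtccccctcaCACCTGcg
These letters are matches to a motif, and binding was not measured.

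Among the 15 listed partners and proteases of EPCAM, 3 were lower at an unadjusted p under 0.05 by limma and none was higher. Of all entries, 3.33% were lower and 3.78% higher at that threshold. Among them were CLDN7, a claudin that binds EPCAM, with a log2 fold change of −0.62, and ST14, the membrane protease matriptase that cleaves EPCAM, with −0.65. CLDN7 had 72.0, 77.4 and 57.8 FPKM in vehicle-treated and 56.9, 32.2 and 46.7 FPKM in WCE-treated tumors, with no overlap, and its locus is shared with C17orf81. The most abundant of the list were SPINT2, an inhibitor of matriptase, at a mean of 258 FPKM, and the tetraspanin gene CD9 at 230 FPKM, with log2 fold changes of −0.21 and 0.07. The γ-secretase subunits NCSTN, APH1A and PSENEN, which help release the intracellular domain of EPCAM, had log2 fold changes between −0.02 and 0.10. The median of the list was −0.02.

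Of the 21 other cadherins, 5 reached the minimum of 0.5 FPKM. None of these had an unadjusted p under 0.05 by limma, against 7.1% of all entries. CDH11, a cadherin of mesenchymal cells, was more abundant than CDH1 or CDH2, at 70.7 to 84.1 FPKM in vehicle-treated and 73.9 to 86.2 FPKM in WCE-treated tumors, with a log2 fold change of 0.04. CDH3, which encodes P-cadherin, had 31.7, 34.4 and 33.1 FPKM and 34.6, 16.6 and 20.8 FPKM (log2 fold change −0.51, unadjusted p = 0.0633). WCE replicate 1 was again with the vehicle-treated tumors. Among 12 catenins and other proteins bound to cadherins, 8 were tested and none had an unadjusted p under 0.05. VCL, which encodes vinculin, had a mean of 125 FPKM and a log2 fold change of 0.07. The entry that holds CTNND1, the p120 catenin gene, is merged with TMX2, and its mean of 225 FPKM and log2 fold change of −0.08 cannot be split between them. CTNNA1, which encodes α-catenin, the link from E-cadherin to actin, was at 0 to 0.119 FPKM in the 6 tumors. It was named after its values were seen, and its loss is a known feature of PC-3.

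Other transcription factors of either state mostly did not pass the unadjusted threshold, which 3.78% of all entries passed as higher and 3.33% as lower. Of 12 other EMT factors tested, HMGA2, an architectural chromatin protein whose locus is shared with RPSAP52, was higher, with 26.4, 27.1 and 32.0 FPKM in vehicle-treated and 31.3, 47.1 and 39.2 FPKM in WCE-treated tumors (log2 fold change 0.43, unadjusted p = 0.0270 by limma). The abundant SOX4 (43.3 FPKM) and ETS1 (41.4 FPKM) had log2 fold changes of −0.19 and 0.23, and the median of the list was 0.02. Of 14 other epithelial factors tested, OVOL2, a repressor of ZEB1, was lower. OVOL2 had 6.06, 5.75 and 4.47 FPKM in vehicle-treated and 4.77, 2.60 and 2.90 FPKM in WCE-treated tumors, or −0.56 on the log2 scale (standard error 0.20, unadjusted p = 0.0233 by limma). KLF5 (44.8 FPKM) and FOXA1 (42.6 FPKM), the most abundant of this list, had −0.13 and −0.08, and the median was −0.03. Of 13 other splicing regulators, MBNL2 was lower by −0.28 on the log2 scale (unadjusted p = 0.0421 by limma), and the abundant HNRNPF and HNRNPM had −0.19 and −0.08. The median of that list was −0.08.

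Of the 15 mesenchymal genes tested, 8 had a positive and 7 a negative log2 fold change, with a median of 0.05. LOX, a collagen crosslinking enzyme, was higher by 0.42 and VCAN, a matrix proteoglycan, was at −0.68, each with an unadjusted p under 0.05 (0.0420 and 0.0234 by limma). At that threshold 3.78% of all entries were higher and 3.33% were lower. FN1, which encodes fibronectin, had 33.5, 63.6 and 136 FPKM in vehicle-treated and 138, 30.3 and 66.9 FPKM in WCE-treated tumors, the highest pair being the nearly identical libraries. S100A4, a calcium-binding protein gene of motile cells, ranged from 88.0 to 264 FPKM and had a log2 fold change of −0.12.

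For 2 tumors against 2, where 8.92% of all entries were higher and 9.63% lower at an unadjusted p under 0.05 by limma, 4 of the mesenchymal genes were higher and 4 lower. Of the EPCAM partners 1 was higher and 4 were lower, and of 6 other cadherins tested 1 was lower. No catenin passed in either direction. Of the other EMT factors 1 was higher, of the other epithelial factors 1 was higher and 3 were lower, and of the other splicing regulators 1 was higher and 2 were lower. None of these genes had an adjusted p under 0.05.

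The entries whose profile over the 6 tumors was closest to that of EPCAM were AP1M2, ZNF165, LOC100133985, TMEM30B and LSM2, by the root mean square difference of their centered log2(FPKM + 1) values. This difference was 0.0874 for AP1M2 and 0.139 for LSM2. Among 13286 entries compared, CDH2 ranked 74, GRHL2 79, ESRP1 115 and CDH1 160, whereas VIM ranked 12732 and ZEB1 13011. ESRP2 at rank 1791 and SNAI2 at rank 4496 lay between. The 6 tumors include the nearly identical pair and the ranks carry no test.

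**Figure D4:**
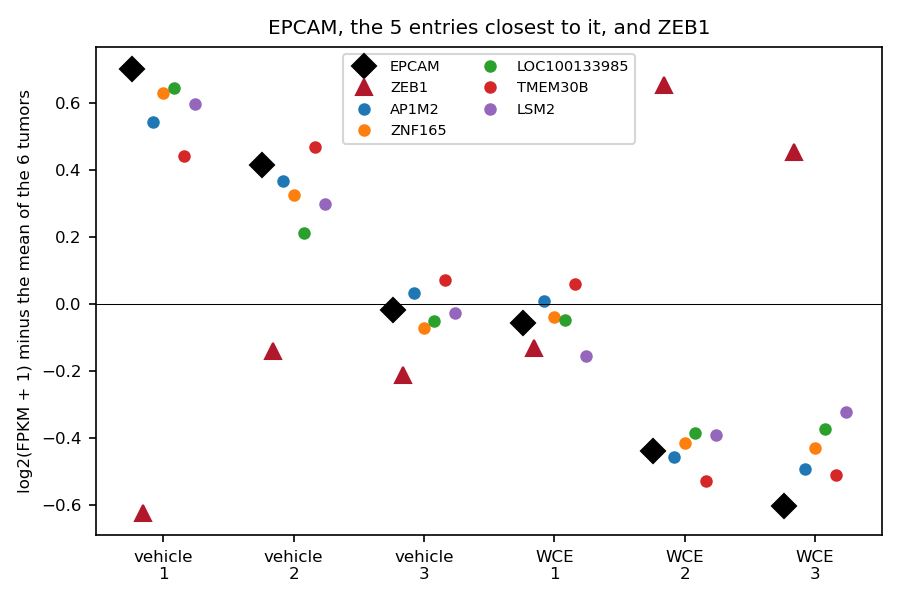
Centered log2(FPKM + 1) values in each tumor are plotted for EPCAM (diamonds), the 5 entries closest to it (circles) and ZEB1 (triangles). EPCAM and the 5 entries are above their means in vehicle replicates 1 and 2 and below them in WCE replicates 2 and 3, ZEB1 is the reverse in these 4 tumors, and EPCAM and the 5 entries lie close to 0 in the nearly identical libraries.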

How the data were processed

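Poly(A) RNA of 6 PC-3 tumors was sequenced from stranded libraries. The submitters' processing notes name TopHat2 2.0.13, Cufflinks and the builds hg19 and mm10, without their roles, so how mouse reads were treated is not given in the sources used here. The deposited table holds FPKM per entry, computed by the authors with Cufflinks; it has no counts, so depth is unknown in absolute terms. Loci were written 1-based. Groups came from the labels, which number the tumors but do not tie them to separate mice, so p-values measure only the spread between these samples, which may be technical. Entries with a mean of at least 0.5 FPKM were compared on log2(FPKM + 1), a scale that understates changes of low entries, with limma 3.58.1 (trend; R 4.3.3) and Benjamini-Hochberg adjustment over all 13287 entries tested. The test was checked on simulated data. Single genes also had a two-sided exact permutation test (Python 3.11.15). The 9 genes and the gene lists were chosen with earlier results of these data known. Besides the 9 genes, the text names from each list the most abundant tested genes and those with the lowest p under 0.05, and any other gene was named after its values were seen. Alternatives changed the pseudocount, filter, scaling, moderation, weights, block and samples. Some listed genes are counted in their lists but not reported here by name.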

Additional observations from a re-analysis of the deposited data

How the results depend on the processing

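Each of the 9 genes kept its direction in all 17 alternatives, and none had an adjusted p under 0.05 in any of them. Leaving out both nearly identical libraries could hardly reverse a direction, because they are in opposite groups, so that alternative is no separate check. The lowest adjusted p over the alternatives were 0.0985 for CDH1 and 0.126 for EPCAM, ESRP1 and ZEB1. EPCAM had an unadjusted p under 0.05 in 16 of the 17. Counts at that threshold were 5 of the 9 genes, 7 junction genes lower and 944 of all entries, with 1 entry past the adjusted threshold. Without a filter on low values they were 1 of the 9 genes, 4 junction genes and 0 adjusted entries (1051 unadjusted). An unmoderated test gave 0 of the 9 genes, 4 junction genes, 593 entries and 0 adjusted entries. Array weights gave 7 of the 9 genes, 11 junction genes and 3201 entries. Without both nearly identical libraries, 8 of the 9 genes, 10 junction genes, 2459 entries and 5 adjusted entries passed. Leaving out 1 tumor at a time gave 1 to 8 of the 9 genes, 4 to 8 junction genes, 228 to 2035 entries and 1 to 7 adjusted entries. The extremes for all entries were without WCE replicate 3 (228) and WCE replicate 1 (2035). The log2 fold change ranged over these from −0.93 to −0.57 for EPCAM, −0.67 to −0.35 for CDH1, −0.52 to −0.26 for CDH2, −0.51 to −0.28 for ESRP1, −0.34 to −0.13 for ESRP2, −0.59 to −0.23 for GRHL2, 0.49 to 0.88 for ZEB1, −0.56 to −0.12 for SNAI2 and 0.24 to 0.57 for VIM. The values nearest 0 were without vehicle replicate 1 for EPCAM, CDH2, ESRP2, GRHL2 and VIM, without WCE replicate 2 for ESRP1, ZEB1 and SNAI2, and without WCE replicate 3 for CDH1. The cause was not tested. The labels do not say whether tumors with the same replicate number share anything else. Their deviations correlated at −0.241, 0.160 and −0.0931, and vehicle replicate 3 was closest to WCE replicate 1. These correlations cannot decide whether the numbers mark pairs. The deviations within a group depend on each other, and the nearly identical libraries are among them. With the replicate block, 7 of the 9 genes, 9 junction genes, 1049 entries and 1 adjusted entry passed. The counts for junction genes were added after seeing the data. With FPKM alone, no interval for counting error could be given.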

Other observations

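TWIST1, a basic helix-loop-helix EMT factor, ranged only from 9.64 to 10.1 FPKM over the 6 tumors, beside the 2.85-fold range of ZEB1. SNAI1 stood at 1.41 to 2.52 FPKM and ZEB2, listed together with ZEB2-AS1, at 0.645 to 1.25 FPKM, below the levels of SNAI2 and ZEB1 in every tumor. The groups of all 3 genes overlapped, with log2 fold changes of −0.0031 for TWIST1, 0.08 for SNAI1 and −0.10 for ZEB2, and they were named after their values were seen.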
